A study of Mus musculus with 72 samples.

Results

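Oligodendrocyte lineage and myelin genes were followed through postnatal development in the brains of Ts1Cje mice and their disomic littermates. The set holds 31 genes named for the stages of this lineage: 4 of precursors, 4 of differentiating cells and 23 of myelinating cells. Of these, 30 were measured by a probe set that carries their symbol alone, out of 18194 genes so measured on the array, and *Trf* was left out because its probe set is shared with another symbol. Where a gene had several probe sets, the one of highest mean level across the 72 arrays stood for it. Total RNA of cerebral cortex, cerebellum and hippocampus was hybridised at P1, P15, P30 and P84, with an array for each mouse and region. The methods give the youngest age as P1.5. Ts1Cje mice carry an extra copy of a chromosome segment whose genes correspond to part of the chromosome that is trisomic in Down syndrome. They came from Ts1Cje males crossed with C57BL/6 females, the controls were disomic littermates, all were labelled female and no treatment was given. There were 3 mice in each of the 24 groups of region, age and genotype, and the 3 regions came from the same mice.

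Oligodendrocytes wrap axons of the central nervous system in myelin. They arise from proliferating precursors that carry the PDGF receptor alpha, pass through a brief premyelinating stage marked by genes such as *Gpr17* and *Bcas1*, and then switch on the genes of the myelin membrane and of its galactolipids. In the rodent brain this happens mostly after birth and spreads from the hindbrain forwards. In bulk tissue, fewer cells of a type and less RNA per cell cannot be told apart.

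Promoter windows of RefSeq (build GRCm38.p6, 250 bases before to 50 after a transcription start) were found for 23 of the 30 genes and gave 33 windows. *Sox10*, *Gpr17*, *Bcas1*, *Mbp*, *Fa2h*, *Car2* and *Cryab* had no entry. The letters ACAAAG, or CTTTGT on the other strand, form the core of sites recognised by Sox factors, the family of the lineage regulator *Sox10*. They occur in 10 of the 33 windows (30.3%), against 18.7% of all 32851 windows of the same length, and in windows of 8 of the 23 genes, against 21% of 27025 genes. Of the 10, 2 are overlapping windows of *Mag* that share 1 match. The windows below are shown for *Mobp* and *Mal*, which had the greatest change from P1 to P15 among sheath genes with 1 window, and for *Klk6*, which differed between regions and between genotypes and has 2 annotated starts. Each is written 5′ to 3′ on the gene's strand, and capitals mark the 6 letters of a match.
*Mobp*, chr9:120149492-120149791, plus strand: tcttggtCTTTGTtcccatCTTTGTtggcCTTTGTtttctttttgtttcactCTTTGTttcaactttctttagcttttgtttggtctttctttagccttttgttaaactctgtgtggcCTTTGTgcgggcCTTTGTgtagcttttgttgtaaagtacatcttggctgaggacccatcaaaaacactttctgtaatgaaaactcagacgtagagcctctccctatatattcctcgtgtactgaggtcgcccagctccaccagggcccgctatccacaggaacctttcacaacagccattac
*Mal*, chr2:127656646-127656945, minus strand: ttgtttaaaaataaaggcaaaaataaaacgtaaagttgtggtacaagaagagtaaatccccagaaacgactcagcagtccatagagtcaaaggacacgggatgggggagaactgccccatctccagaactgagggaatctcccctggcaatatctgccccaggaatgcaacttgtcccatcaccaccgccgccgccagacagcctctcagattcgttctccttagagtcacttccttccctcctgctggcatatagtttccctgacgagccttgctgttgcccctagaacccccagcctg
*Klk6*, first start, chr7:43824294-43824593, plus strand: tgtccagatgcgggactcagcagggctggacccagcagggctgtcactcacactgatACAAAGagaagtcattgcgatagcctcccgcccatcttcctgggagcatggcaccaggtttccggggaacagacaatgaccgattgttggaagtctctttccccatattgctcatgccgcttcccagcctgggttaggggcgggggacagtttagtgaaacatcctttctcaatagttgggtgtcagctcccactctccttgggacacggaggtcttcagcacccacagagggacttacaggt
*Klk6*, second start, chr7:43825200-43825499, plus strand: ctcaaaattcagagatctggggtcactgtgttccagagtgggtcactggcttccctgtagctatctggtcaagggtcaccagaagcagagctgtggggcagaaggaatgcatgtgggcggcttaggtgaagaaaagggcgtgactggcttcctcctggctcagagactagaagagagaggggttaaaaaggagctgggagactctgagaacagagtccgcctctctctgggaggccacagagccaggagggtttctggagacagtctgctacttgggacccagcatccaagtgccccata
The *Mobp* window holds 6 matches, the first *Klk6* window 1, and the *Mal* window and the second *Klk6* window none. These are matches of letters in a window, not measured sites.

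Levels are deposited gcRMA values on a log2 scale, so that a difference of 1 is a doubling, and levels of different genes are not compared. A difference passed the test at a moderated t of 4 or more in size in limma with a p, adjusted by Benjamini-Hochberg over the 45101 probe sets of a comparison, not above 0.05. The disomic P15 replicate 3 arrays labelled cerebellum and hippocampus were left out. On an axis from hippocampus (0) to cerebellum (1) they lay at 0.0118 and 0.988, each at the place of the other, so that *Pdgfra*, *Klk6* and *Mal* read 8.99, 2.45 and 9.15 on the array labelled cerebellum and 6.31, 3.96 and 10.49 on the one labelled hippocampus. This left 70 arrays and 2 disomic arrays in each of these P15 groups. Another 3 disomic replicate 3 arrays were dim (P1 cerebellum, P84 cerebral cortex and P84 hippocampus), with upper quartiles of 4.97 to 5.51 against 5.65 to 5.93 on the others. *Xist*, transcribed in female cells, read 1.96 to 2.76 on 69 of the 72 arrays, below the median of each, and 5.57 to 8.12 on the Ts1Cje P1 replicate 3 arrays of the 3 regions. *Eif2s3y*, a gene of the Y chromosome, read 7.20 to 9.68 on the 69 and 2.16 to 2.90 on the 3. These levels go against the female label of the 69 arrays. Array medians ran from 3.20 to 3.37. Where a group lay below its array median the gene cannot be told from background, which makes the size of any difference from that group uncertain. At P1 this held for 10 of the 30 genes in cerebral cortex, 8 in cerebellum and 9 in hippocampus, and at P84 for 2, 1 and 2.

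Nearly the whole set rose between P1 and P15. In the cerebral cortex 26 of 30 genes rose and none fell, with a median difference of 3.16 (log2) against 0.02 over all genes, where 16.2% rose and 16.3% fell. In the cerebellum 25 rose and 1 fell, with a median of 3.45 against -0.08, where 13.4% of all genes rose and 15.5% fell. In the hippocampus 26 rose and none fell, with a median of 3.38 against -0.01, where 13.7% rose and 13.4% fell. In each region the other probe sets of the called genes never passed the test in the opposite direction; 19 of 29 in cerebral cortex, 22 of 29 in cerebellum and 22 of 29 in hippocampus passed it in the same one.

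**Figure D1:**
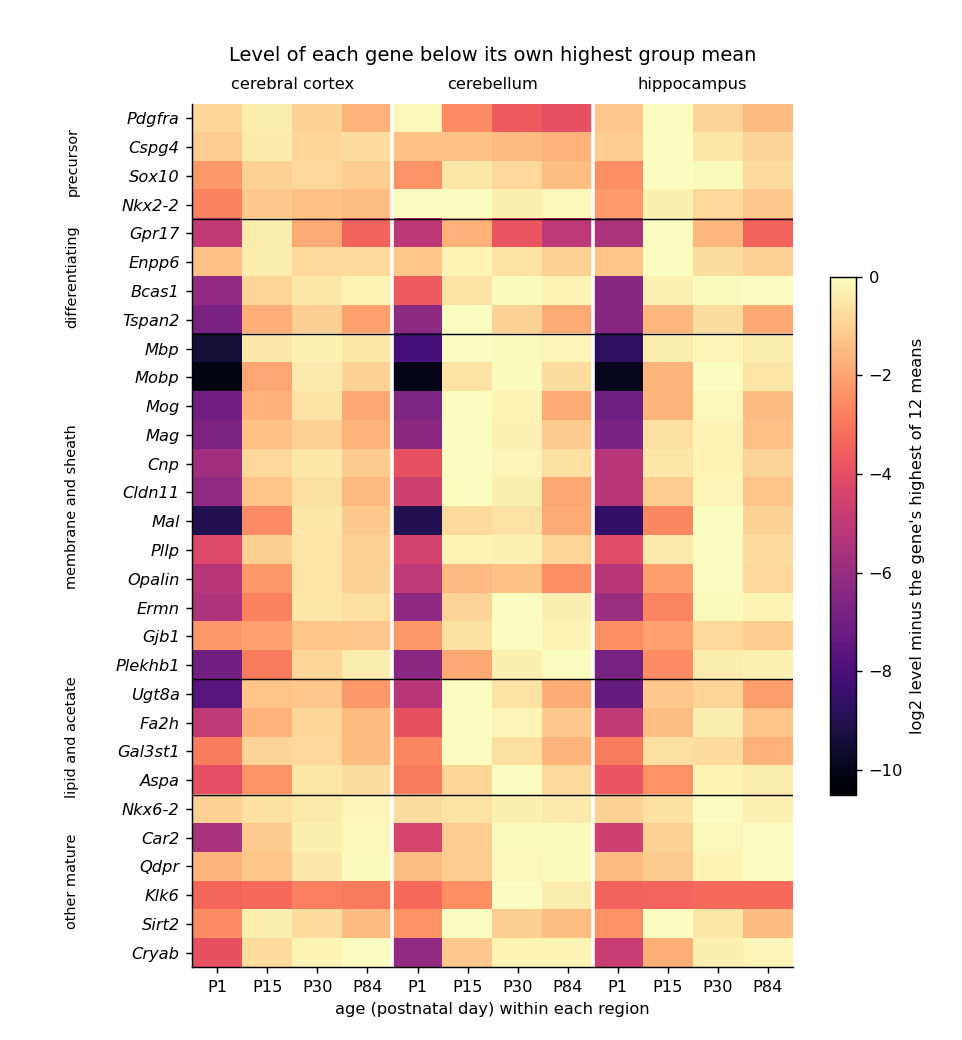
Mean log2 level of each of the 30 genes, with both genotypes averaged, in 3 regions at 4 ages, shown as the difference from that gene's own highest mean. Rows are genes by group and columns are region and age; the P1 columns are far below the others for most genes, and the cerebellum has its highest column more often at P15 than the other regions.

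Among the 4 precursor genes, *Pdgfra*, the receptor through which PDGF drives precursor division, took opposite courses in the forebrain regions and the cerebellum. In the cerebellum its level was 8.56 to 9.19 (median 8.95) over the 6 arrays of P1, 6.43 to 6.88 (6.48) over the 5 of P15, 5.22 to 5.77 (5.45) over the 6 of P30 and 4.47 to 5.71 (5.18) over the 6 of P84. Only the P30 and P84 ranges overlapped. It fell by 2.35 from P1 to P15 (SE 0.13, 5.11-fold lower, limma adjusted p = 6.27e-22) and by a further 1.12 to P30 (SE 0.13, adjusted p = 1.76e-09). In the hippocampus it rose from 7.64 to 8.13 (median 7.94) at P1 to 8.92 to 9.26 (9.11) at P15, without overlap, by 1.19 (SE 0.13, adjusted p = 2.92e-11). In the cerebral cortex the P1 arrays (8.04 to 8.34, median 8.27) also lay below those of P15 (8.60 to 8.85, median 8.74), by 0.51 (SE 0.12, adjusted p = 0.000351). With all 72 arrays as labelled neither rise passed the test (0.71, adjusted p = 0.0418 but a t under 4, in hippocampus and 0.51, adjusted p = 0.15, in cerebral cortex). The rise in the cerebral cortex was also lost without Ts1Cje replicate 2 (0.55), Ts1Cje replicate 3 (0.47) or disomic replicate 1 (0.51). *Pdgfra* is also a gene of meningeal fibroblasts. Of 6 markers of meninges and fibroblasts, none passed the test between P1 and P15 in the cerebellum (median difference -0.81), and their summed level per array, as a mean, was 4.45 to 6.98 at P1 and 4.96 to 5.91 at P15. None of the 6 was below the array median at P1. The most abundant, *Igf2*, averaged 9.76 at P1 and 9.07 at P15, and the part of these cells in the fall was not tested.

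The other precursor genes rose from P1 to P15 in the cerebral cortex and the hippocampus. *Sox10*, which directs oligodendrocyte fate and the myelin genes, rose by 1.25 (SE 0.17) in cerebral cortex, 1.85 (SE 0.19) in cerebellum and 2.47 (SE 0.19) in hippocampus. *Nkx2-2*, a transcription factor that promotes the exit from the precursor state, rose by 1.55 (SE 0.23) and 1.92 (SE 0.24) in the cerebral cortex and hippocampus. In the cerebellum its arrays were already at 4.62 to 6.43 (median 5.67) at P1 and overlapped those of P15 at 5.01 to 6.01 (5.36). The fitted difference there, between averages of the genotype means, was 0.02 (SE 0.24). *Cspg4*, the NG2 proteoglycan of precursors and of pericytes, rose by 0.68 (SE 0.15) in cerebral cortex and 1.09 (SE 0.16) in hippocampus, and its difference in cerebellum was 0.00 (SE 0.16). Of 5 pericyte markers 3 rose over the same step in cerebral cortex, 1 in cerebellum and 2 in hippocampus, and their part in the *Cspg4* values was not tested.

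**Figure D2:**
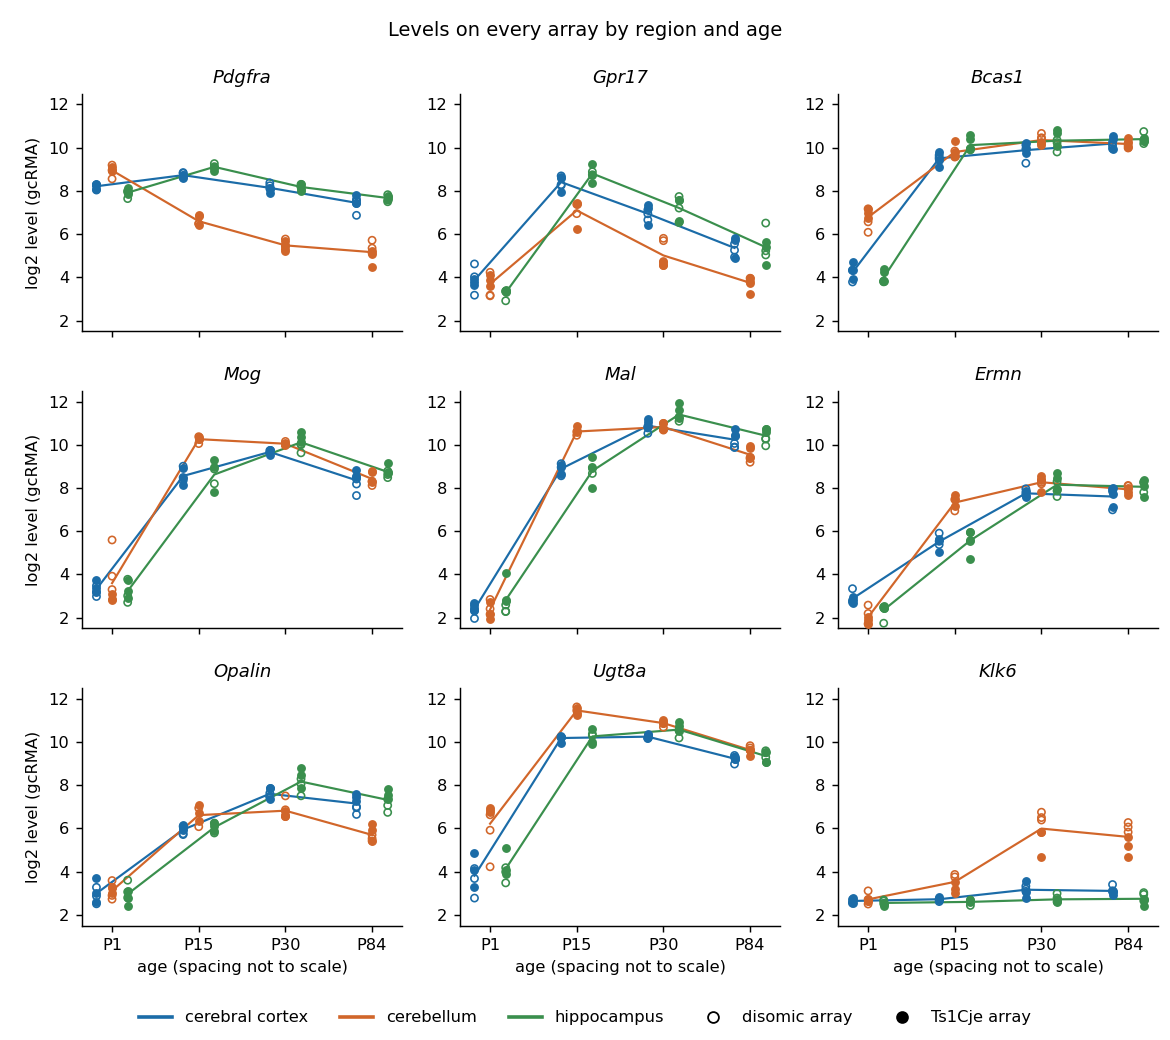
Log2 level of 9 genes on every array, by age in postnatal days and region; open points are disomic mice, filled points Ts1Cje mice, and lines join the means of both genotypes, with the 2 displaced arrays left out. *Pdgfra* falls in the cerebellum from P1 on, *Gpr17* stands at its highest at P15 in the 3 regions, and *Klk6* climbs past 4 in the cerebellum alone.

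The 4 genes of differentiating cells all rose from P1 to P15 in each region. *Gpr17*, a receptor of premyelinating oligodendrocytes, was 3.17 to 4.62 (median 3.87) at P1 and 7.97 to 8.69 (8.45) at P15 in the cerebral cortex, and the difference of 4.54 (SE 0.26) was 23.2-fold (adjusted p = 3.01e-21). The ranges were 3.14 to 4.23 (median 3.73) and 6.25 to 7.44 (7.38) in the cerebellum, a difference of 3.41 (SE 0.27), and 2.91 to 3.43 (3.35) and 8.38 to 9.25 (8.74) in the hippocampus, a difference of 5.51 (SE 0.27). In none of the regions did the P1 and P15 arrays overlap. *Gpr17* then fell at each later step in each region, and from P15 to P84 it was 8.25-fold lower in cerebral cortex, 10.2-fold lower in cerebellum and 10.6-fold lower in hippocampus. *Bcas1*, also of premyelinating and early myelinating cells, did not fall after P15. It rose by 5.27 (SE 0.16) in cerebral cortex, 3.02 (SE 0.17) in cerebellum and 6.13 (SE 0.17) in hippocampus from P1 to P15, and its P84 means were 10.19, 10.17 and 10.39. *Tspan2*, a tetraspanin of maturing oligodendrocytes, rose by 4.98 (SE 0.25), 6.28 (SE 0.27) and 4.85 (SE 0.27). *Enpp6*, a choline phosphodiesterase of newly formed oligodendrocytes, had the smallest rises of the group, 0.97 (SE 0.18), 1.04 (SE 0.19) and 1.31 (SE 0.19).

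Of the 12 genes of the myelin membrane and sheath, 11 rose from P1 to P15 in cerebral cortex, 12 in cerebellum and 11 in hippocampus. *Mobp*, a small basic protein of compact myelin, was 2.03 to 2.31 (median 2.18) at P1 and 10.11 to 10.74 (10.35) at P15 in the cerebral cortex. It was 1.73 to 3.54 (median 2.10) and 11.62 to 11.96 (11.66) in the cerebellum, and 1.98 to 4.25 (2.05) and 10.21 to 11.13 (10.69) in the hippocampus. The rises of 8.20 (SE 0.20), 9.42 (SE 0.22) and 8.30 (SE 0.22) start from P1 means below the array median. *Mbp*, the main cytoplasmic protein of compact myelin, rose by 8.93 (SE 0.50), 8.09 (SE 0.53) and 8.33 (SE 0.53). Its P1 arrays were uneven. In the hippocampus 5 of the 6 lay between 3.74 and 4.90 while Ts1Cje replicate 3 read 10.40, the array on which *Mobp* (4.25) and *Mal* (4.08) were also highest. In the cerebellum *Mbp* was 4.62, 6.91 and 3.83 (dim) in disomic mice and 5.56, 7.19 and 7.34 in Ts1Cje mice at P1. From P15 on no *Mbp* array was below 13.20, and no later step passed the test in any region.

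*Mal*, a proteolipid of membrane rafts, rose by 6.50 (SE 0.17) in cerebral cortex, 8.24 (SE 0.18) in cerebellum and 5.98 (SE 0.18) in hippocampus from P1 to P15. *Mog*, an immunoglobulin-like protein of the outer myelin face, rose by 5.23 (SE 0.22), 6.66 (SE 0.24) and 5.39 (SE 0.24). *Mag*, the adhesion protein of the inner, axon-facing membrane, rose by 5.37 (SE 0.16), 6.32 (SE 0.17) and 6.10 (SE 0.17). The enzyme *Cnp*, which keeps cytoplasmic channels open in myelin, started from P1 means of 7.17, 9.03 and 7.77 and rose by 4.99 (SE 0.15), 3.96 (SE 0.16) and 4.71 (SE 0.16). *Cldn11*, the claudin of the tight junctions between myelin layers, rose by 4.93, 4.60 and 4.06 with SEs of 0.50 to 0.53, from P1 arrays that ran from 1.93 to 6.64 in the cerebral cortex. *Ermn*, a late cytoskeletal protein of mature oligodendrocytes, rose by 2.64 (SE 0.19) and 3.22 (SE 0.20) in cerebral cortex and hippocampus and by 5.30 (SE 0.20) in cerebellum. The gap-junction gene *Gjb1* rose by 1.65 (SE 0.19) in cerebellum, while its differences of 0.27 and 0.44 in cerebral cortex and hippocampus did not pass the test.

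The 4 genes of myelin lipid and acetate metabolism rose from P1 to P15 in each region. *Ugt8a*, which makes galactosylceramide, rose by 6.37 (SE 0.23) in cerebral cortex, 5.24 (SE 0.24) in cerebellum and 6.13 (SE 0.24) in hippocampus. Its other probe set, of larger interquartile range and lower mean, rose by 1.85, 3.72 and 2.00. *Fa2h*, which adds the hydroxyl group of myelin fatty acids, rose by 3.37, 3.90 and 3.55 (SEs 0.21 to 0.22). *Gal3st1*, which makes sulfatide, rose by 1.92, 2.65 and 2.23 (SEs 0.15 to 0.16). *Aspa*, which releases acetate from N-acetylaspartate, rose by 1.64, 2.04 and 1.35 (SEs 0.18 to 0.19). Of the 6 other genes of mature oligodendrocytes, the carbonic anhydrase *Car2*, the deacetylase *Sirt2* and the small heat shock protein *Cryab* rose in all 3 regions. *Qdpr*, which regenerates tetrahydrobiopterin and is used by many cells, differed by 0.33 to 0.36 and did not pass the test. *Nkx6-2*, a regulator of late myelination, was at 3.48 or less on every array.

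From P15 to P30 the genes divided. In cerebral cortex 9 of 30 rose and 3 fell (1.6% and 1.85% of all genes), in cerebellum 6 rose and 4 fell (2.85% and 3.77%), and in hippocampus 11 rose and 3 fell (1.24% and 1.53%). Sheath genes made up 7 of the 9, 2 of the 6 and 7 of the 11. *Mal* rose from 8.56 to 9.12 (median 8.96) to 10.53 to 11.21 (10.87) in the cerebral cortex, by 1.99 (SE 0.17, adjusted p = 1.7e-12), and by 2.61 (SE 0.18, adjusted p = 2.5e-15) in the hippocampus. In the cerebellum the *Mal* arrays of P15 (10.44 to 10.87, median 10.61) and P30 (10.68 to 11.03, 10.76) overlapped, a difference of 0.21 (SE 0.18, adjusted p = 0.617). *Ermn* rose by 2.23 and 2.58 in cerebral cortex and hippocampus and by 0.94 in cerebellum. *Pdgfra*, *Gpr17* and *Sirt2* fell in all 3 regions, and *Gal3st1* fell in the cerebellum. When a replicate was left out, the *Sirt2* fall passed in 1 of 6 fits in cerebral cortex and 2 of 6 in hippocampus. The *Gal3st1* fall in the cerebellum passed in 2 of 6. With the replicate number as a block the count in the cerebellum was 6 in place of 10.

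After P30 no gene of the set rose, where 0.176%, 0.484% and 0.0769% of all genes did in cerebral cortex, cerebellum and hippocampus. From P30 to P84, 7 of 30 fell in cerebral cortex (0.522% of all genes), 9 in cerebellum (0.868%) and 14 in hippocampus (0.55%), with medians of -0.35, -0.45 and -0.53. *Mog* fell by 1.31, 1.63 and 1.37 (SE 0.22 each) and *Ugt8a* by 1.02, 1.25 and 1.22 (SE 0.23 each), in the same order of regions. All 4 lipid and acetate genes fell in cerebellum, 2 in cerebral cortex and 3 in hippocampus. *Mbp*, *Mobp* and *Plekhb1*, a membrane-associated protein with a pleckstrin homology domain, did not pass the test in any region. The counts in the cerebral cortex and hippocampus became smaller when some replicate numbers of a genotype were left out, at all ages and regions together. Without Ts1Cje replicate 1, Ts1Cje replicate 2 or disomic replicate 1 the 7 became 4. Without Ts1Cje replicate 2, Ts1Cje replicate 3 or disomic replicate 1 the 14 became 6, 8 and 7.

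**Figure D3:**
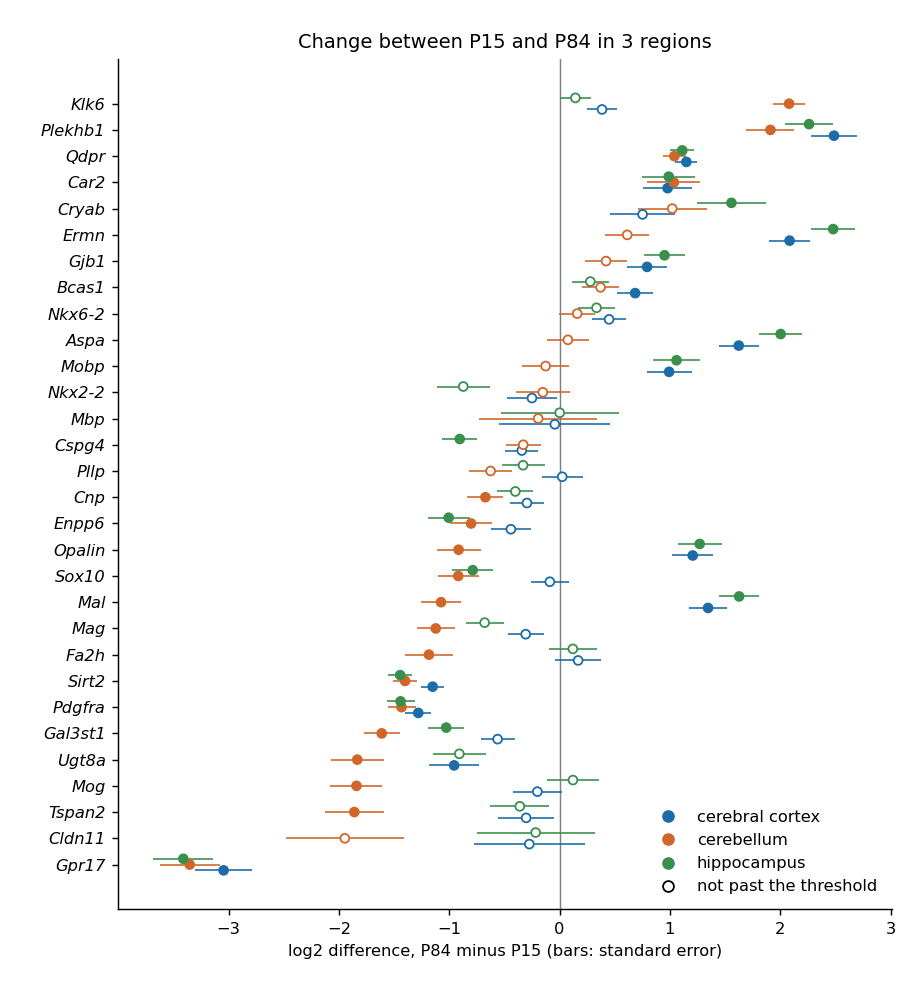
Difference in log2 level between P84 and P15 for each of the 30 genes in cerebral cortex, cerebellum and hippocampus; bars are standard errors of the fit and filled points passed the test. *Gpr17* is lowest in each region, and *Mog*, *Mal* and *Opalin* lie below 0 in the cerebellum, where *Mal* and *Opalin* are above 0 in the other regions.

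Over the whole span from P15 to P84, 10 genes rose and 4 fell in cerebral cortex (2.8% and 4.52% of all genes), 10 rose and 7 fell in hippocampus (1.79% and 4.25%), and 4 rose and 14 fell in cerebellum (4.35% and 5.94%, median of the set -0.65 against 0.03). *Opalin*, a membrane glycoprotein of mature oligodendrocytes, was 5.71 to 6.16 (median 5.96) at P15 and 6.64 to 7.58 (7.13) at P84 in the cerebral cortex, all P84 arrays above all P15 arrays. In the cerebellum it was 6.08 to 7.09 (median 6.70) at P15 and 5.42 to 6.19 (5.62) at P84, with the order turned and a narrow overlap. The change therefore differed by 2.12 (SE 0.27) between the regions, lower in the cerebellum (adjusted p = 1.12e-07). The same test of the change in cerebellum against that in cerebral cortex gave 1 gene with a higher change and 8 with a lower one (1.76% and 2.18% of all genes), and against hippocampus 1 and 6 (1.7% and 1.71%). The changes of *Mal* (-2.42, SE 0.25, adjusted p = 2.72e-10), *Mog* (-1.64, SE 0.32) and *Ermn* (-1.47, SE 0.27) were lower in the cerebellum than in the cerebral cortex, as were those of *Tspan2*, *Fa2h*, *Gal3st1* and *Aspa*. *Mobp* at -1.12 (SE 0.30, adjusted p = 0.0137) missed the threshold on t. With all 72 arrays as labelled the 9 became 5. Between hippocampus and cerebral cortex none of the 30 differences of change passed the test (0.203% and 0.341% of all genes).

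The differences between regions changed with age. At P1, 8 of 30 genes were higher and 2 lower in the cerebellum than in the cerebral cortex (10% and 10.2% of all genes). *Nkx2-2* was higher by 2.70 (SE 0.23, 6.51-fold), *Bcas1* by 2.55 (SE 0.16, 5.86-fold) and *Ugt8a* by 2.41 (SE 0.23, 5.32-fold). By the other probe set of *Ugt8a* the difference was 0.15 and the call was lost (adjusted p = 0.83). *Bcas1* was 6.08 to 7.17 (median 6.86) in cerebellum, 3.78 to 4.69 (4.32) in cerebral cortex and 3.79 to 4.40 (3.84) in hippocampus, where only the latter ranges overlapped. *Cryab* was lower in the cerebellum by 2.25 (SE 0.30). At P15, 16 genes were higher and 3 lower (10.4% and 12.6%), with a median of 0.81. *Ermn* (1.80, SE 0.20), *Mal* (1.72, SE 0.18), *Mog* (1.70, SE 0.24) and *Mobp* (1.33, SE 0.22) were among the 16, and *Pdgfra*, *Cspg4* and *Gpr17* were the 3. By P30 there were 4 higher and 4 lower (10.2% and 12.8%) and by P84 3 and 5 (11% and 12.1%), shares close to those of all genes.

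*Pdgfra* was lower in the cerebellum than in the cerebral cortex by 2.66 at P30 (SE 0.12, 6.33-fold), where its cerebellar arrays (5.22 to 5.77) lay far under the cortical ones (7.89 to 8.37). *Gpr17* was lower in the cerebellum by 1.31 (SE 0.27) at P15, 1.93 (SE 0.26) at P30 and 1.62 (SE 0.26) at P84. *Nkx2-2* remained higher in the cerebellum than in the cerebral cortex at all 4 ages, and *Gjb1* from P15 on, by 1.38, 1.25 and 1.00. *Opalin* was lower in the cerebellum than in the cerebral cortex by 0.78 (SE 0.19) at P30 and 1.45 (SE 0.19) at P84. Against the hippocampus the cerebellum had 7 genes higher and 1 lower at P1 (7.93% and 8.34%), 10 and 3 at P15 (8.15% and 11.1%), 2 and 6 at P30 (9.33% and 12.9%) and 3 and 5 at P84 (10.9% and 11.9%).

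Hippocampus and cerebral cortex were closer. Over the 4 ages 4 differences passed the test, all higher in the hippocampus: *Car2* at P1 (0.96, SE 0.23), *Sox10* at P15 (0.99, SE 0.19) and P30 (0.78, SE 0.17), and *Mag* at P30 (0.80, SE 0.16). The share of all genes higher in the hippocampus was 2.61%, 2.71%, 3.59% and 3.55% at the 4 ages, and the share lower there 1.69%, 2.74%, 3.61% and 3.97%. Leaving out Ts1Cje replicate 2 made the count 7, while leaving out disomic replicate 1 or 3 made it 2 or 1.

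*Klk6*, a secreted serine protease of mature oligodendrocytes that is abundant in the hindbrain and spinal cord, had its own course in the cerebellum. There it was 2.50 to 3.11 (median 2.67) at P1, 3.03 to 3.87 (3.50) at P15, 4.66 to 6.75 (6.11) at P30 and 4.69 to 6.27 (5.72) at P84. It rose by 0.81 (SE 0.14) to P15 and by 2.47 (SE 0.14, 5.52-fold, adjusted p = 2.74e-19) to P30, and the P30 and P84 arrays overlapped. In the cerebral cortex no array passed 3.54 and in the hippocampus none passed 3.03, and no step between ages passed the test in either. At P30 it was 7.11-fold higher in cerebellum than in cerebral cortex and 9.67-fold higher than in hippocampus, both from groups below the array median. Its change from P15 to P84 was higher in the cerebellum than in the cerebral cortex by 1.70 (SE 0.20, adjusted p = 8.02e-09), while those of the sheath genes named above were lower. Of 4 brainstem markers measured, *Slc6a5*, the glycine transporter of inhibitory neurons, averaged 2.92, 3.77, 3.81 and 4.23 in cerebellum over the 4 ages and 1.98 to 2.13 in cerebral cortex and hippocampus. *Hoxb3* and *Hoxb5* averaged 3.09 or less throughout. *Hoxa5* averaged 4.52 to 5.28 in cerebellum, 4.58 to 5.51 in cerebral cortex and 5.02 to 5.75 in hippocampus. Their part in the *Klk6* level was not tested. The 3 Schwann cell markers measured were at 2.13 to 2.60 in the cerebellum, below the array median.

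A longer list of 61 genes of the same pathway, of which 57 were analysed, had 23 genes higher and 8 lower at P15 than at P1 in each region, where 16.2%, 13.4% and 13.7% of all genes were higher and 16.3%, 15.5% and 13.4% lower in cerebral cortex, cerebellum and hippocampus. Among 9 transcription factors, *Olig1*, needed for oligodendrocyte maturation, rose by 0.80, 0.52 and 1.31 and *Myrf*, which switches on myelin genes, by 1.43, 1.73 and 1.93 in cerebral cortex, cerebellum and hippocampus. Of 7 receptors 4, 4 and 3 rose, among them the neuregulin receptor *Erbb3* by 1.56, 2.50 and 1.55. Of 5 inhibitors of differentiation 2, 2 and 3 fell and none rose, with *Hes5*, a Notch effector, lower by 3.83 (SE 0.24) in the cerebellum. Among 5 other precursor genes the proteoglycan *Vcan* fell by 4.27, 3.12 and 3.01. Of 4 ligands, *Pdgfa* rose in cerebral cortex and hippocampus by 0.62 each and *Nrg1* fell in cerebellum by 1.88. Of 27 other myelin and oligodendrocyte genes 14, 16 and 14 rose and 4, 1 and 2 fell. *Tppp*, a tubulin-binding protein, rose by 4.80, 4.74 and 4.87. *Cntn2*, an axonal and glial adhesion protein, fell by 3.24 and 3.30 in cerebral cortex and hippocampus and rose by 2.83 in cerebellum. From P15 to P30, 12, 9 and 12 of the 57 rose (1.6%, 2.85% and 1.24% of all genes) and 1, 5 and 4 fell (1.85%, 3.77% and 1.53%). From P30 to P84 only *Il33*, an alarmin of oligodendrocytes and astrocytes, rose (1.71, 1.73 and 1.98), where 0.176%, 0.484% and 0.0769% of all genes did, and 3, 6 and 8 fell (0.522%, 0.868% and 0.55%), with the actin-severing *Gsn* lower by 1.30, 1.64 and 1.55.

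**Figure D4:**
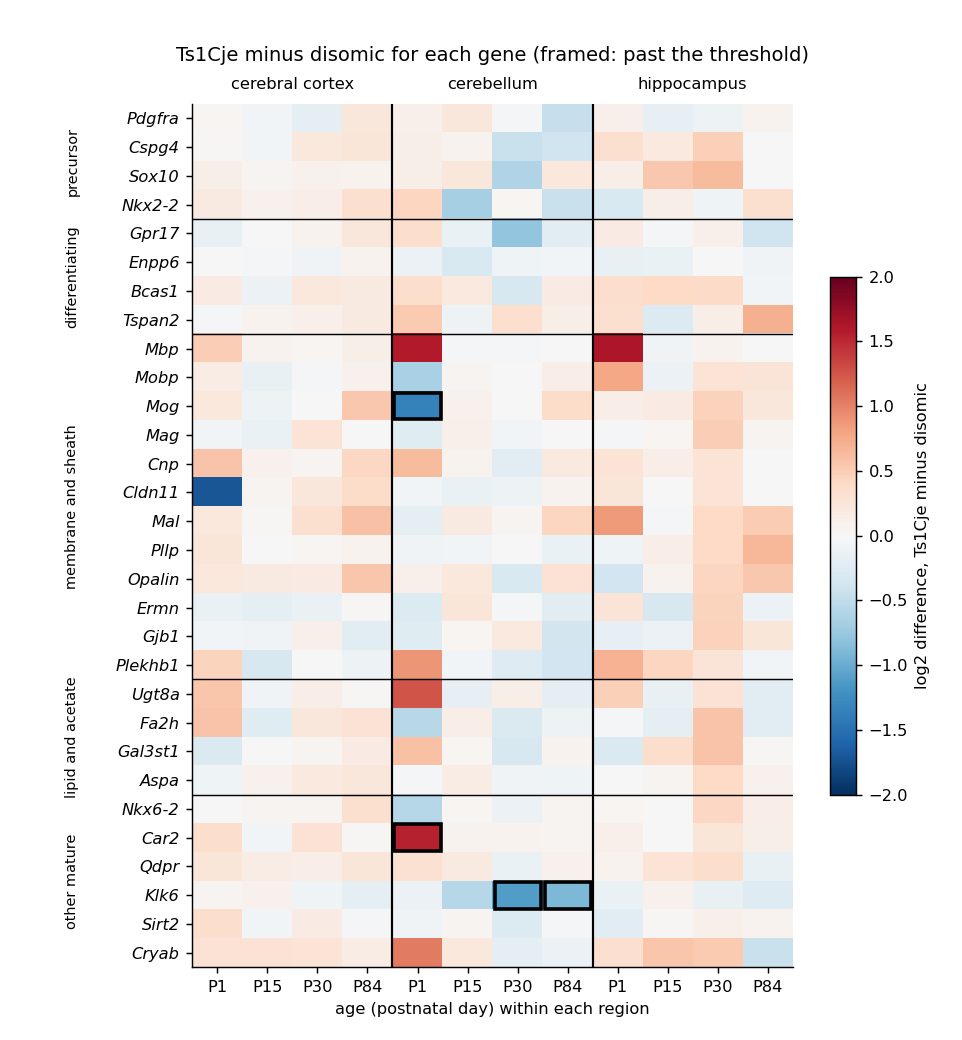
Difference in log2 level between Ts1Cje and disomic mice for the 30 genes in 12 comparisons of region and age; frames mark the 4 differences that passed the test. They lie in the cerebellum (*Mog* and *Car2* at P1, *Klk6* at P30 and P84).

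Between Ts1Cje and disomic mice few differences of the set passed the test: 4 of 360 in 12 comparisons, all 4 in the cerebellum. This is a larger share than the 0.142% of the differences of all genes, and none of the 4 passed under every alternative. In the averages of the 4 ages 1 of 90 passed, *Klk6* in the cerebellum (0.311% over all genes). No gene of the set differed in its genotype effect between regions (limma adjusted p = 0.194 at the lowest, *Klk6*, cerebellum against cerebral cortex). Of all genes 0% did so in each pair of regions. Nor did any genotype effect of the set change with age by the F test, which 0%, 0.11% and 0.011% of all genes passed in cerebral cortex, cerebellum and hippocampus. At an unadjusted p under 0.05 the F test had 0, 7 and 1 genes of the set in these regions, against 2.22%, 8.95% and 4.03% of all genes. The differences by genotype had 3, 0, 0 and 2 genes at P1, P15, P30 and P84 in cerebral cortex, against 3.23%, 1.9%, 2.09% and 9.28% of all genes. In cerebellum they had 11, 1, 4 and 2 (21.2%, 1.8%, 5.09% and 3.61%) and in hippocampus 4, 0, 5 and 3 (3.04%, 3.68%, 2.23% and 8.03%).

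*Klk6* was lower in the cerebellum of Ts1Cje mice than of disomic mice at P30 and P84. At P30 it was 6.39, 6.75 and 6.50 in disomic mice and 5.83, 4.66 and 5.81 in Ts1Cje mice. At P84 it was 6.27, 5.83 and 6.06 against 5.16, 5.61 and 4.69. At P15 it was 3.87 and 3.75 against 3.03, 3.19 and 3.50, and the groups did not overlap at any of these 3 ages. Not overlapping in this direction held for 8.4%, 7% and 5.64% of all genes at P15, P30 and P84. The difference at P30 was -1.11 (SE 0.19, 2.16-fold lower, adjusted p = 0.00235), where 0.0495% of all genes were lower, and at P84 -0.90 (SE 0.19, 1.86-fold lower, adjusted p = 0.0202), where 0.044% were. At P15 it was -0.57 (adjusted p = 1.00) and at P1, with the gene below the array median, -0.11. Over the 4 ages it averaged -0.67 (SE 0.10, 1.59-fold lower, adjusted p = 1.68e-05), and 0.055% of all genes were lower. The average was lost with 1 fit per region (adjusted p = 0.0768). The P30 call was lost without Ts1Cje replicate 2 (-0.72, adjusted p = 0.195) or disomic replicate 2 (adjusted p = 0.124), with all 72 arrays (0.157) and with 1 fit per region (0.722). The P84 call was lost when any replicate but Ts1Cje replicate 2 was left out (-1.01 to -0.66), with all 72 arrays (adjusted p = 0.475) and with 1 fit per region (adjusted p = 1.00). None of the marker lists of other cell types and brain areas had a called gene between the genotypes in the cerebellum at any age. Of all genes only 0.879%, 0.022%, 0.11% and 0.231% were called there at P1, P15, P30 and P84. *Slc6a5* was 4.10 in Ts1Cje and 3.53 in disomic mice at P30 (limma adjusted p = 0.525). The part of cell or tissue make-up in the *Klk6* difference was not tested.

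**Figure D5:**
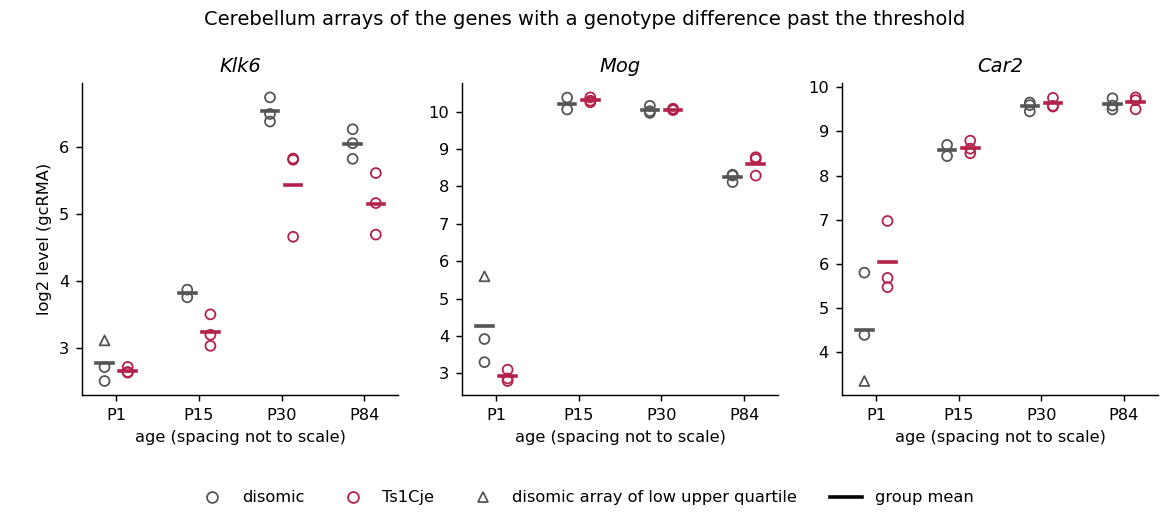
Log2 levels of *Klk6*, *Mog* and *Car2* on each cerebellum array by age and genotype; the triangle is the dim disomic array of P1. *Klk6* is lower in all Ts1Cje mice than in all disomic mice at P15, P30 and P84, and the *Mog* and *Car2* differences at P1 are widest at the triangle.

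The calls at P1 in the cerebellum were lost when some arrays were left out, among them the dim disomic array. Others were the Ts1Cje replicate 3 arrays of P1, which stood apart in *Xist* and *Eif2s3y*. *Mog* was 3.92, 3.30 and 5.60 (dim) in disomic mice and 3.10, 2.86 and 2.80 in Ts1Cje mice, without overlap. The difference was -1.35 (SE 0.31, 2.55-fold lower, adjusted p = 0.0184), where 0.0934% of all genes were lower. The Ts1Cje mean of 2.92 was below the array median, so the size of this *Mog* difference is uncertain. *Car2* was 4.38, 5.80 and 3.34 (dim) against 5.47, 5.68 and 6.97, with overlap. The difference was 1.53 (SE 0.32, 2.89-fold higher, adjusted p = 0.0072), where 0.786% were higher. Without the dim arrays they were -0.69 (adjusted p = 0.616) and 0.95 (adjusted p = 0.379), and without the 3 Ts1Cje replicate 3 arrays of P1 -1.29 (adjusted p = 0.0966) and 1.07 (adjusted p = 0.154). The *Mog* call was also lost without Ts1Cje replicate 1 (-1.44) or 2 (-1.32) and with all 72 arrays (adjusted p = 0.0595), the *Car2* call without disomic replicate 1 (1.47), and both with 1 fit per region. *Ugt8a*, at 1.26 (adjusted p = 0.0344), missed the threshold on t at this age.

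Small differences in 1 direction were common. In the hippocampus at P30, 27 of the 30 genes were above 0, with a median of 0.37 against 0.02 over all genes, and none passed the test. *Mog*, *Gjb1* and *Car2* were higher in all Ts1Cje mice than in all disomic mice there, against 5.52% of all genes. *Mal* read 11.23 on Ts1Cje replicate 1, within the disomic arrays (11.27, 11.09 and 11.25), and 11.93 and 11.63 on replicates 2 and 3. *Fa2h* likewise read 7.85 on Ts1Cje replicate 1 (disomic 7.96, 7.62 and 7.91) and 8.93 and 8.43 on replicates 2 and 3. The 30 genes were read on the same arrays, so their directions are not independent. In the cerebral cortex at P84, 26 were above 0 (median 0.17 against 0.04). Disomic replicate 3 of that group was dim. Among its disomic arrays the dim one read lowest for most of the 30 genes, among them *Ermn*, *Mbp*, *Ugt8a*, *Pdgfra*, *Cnp* and *Mal*. It read highest only for *Cspg4*, *Enpp6*, *Nkx6-2*, *Car2* and *Klk6*. The part of the dim array in the count of 26 was not tested. Over the 4 ages 23, 12 and 25 of the 30 were above 0 in cerebral cortex, cerebellum and hippocampus, with medians of 0.10, -0.05 and 0.14. Each of these averages includes 1 dim disomic array. At P30 in the cerebellum 6 genes, *Cspg4*, *Sox10*, *Gpr17*, *Bcas1*, *Klk6* and *Sirt2*, were lower in all Ts1Cje mice, against 7% of all genes, and none was higher. Of these only *Klk6* passed the test.

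In the pathway list *Olig1* and *Olig2*, basic helix-loop-helix factors of the lineage, lie in the triplicated segment. *Olig1* was 9.62, 9.62 and 9.30 in disomic mice and 9.84, 9.79 and 9.99 in Ts1Cje mice in the P84 cerebral cortex, and every Ts1Cje mouse was above every disomic mouse at all 4 ages in cerebral cortex and in hippocampus, and at 2 of 4 in cerebellum. Depending on age, this held for 4.13% to 6.62% of all genes in the cerebral cortex, while in the hippocampus it held for 3.12% to 11.8%, the latter at P15 with 2 disomic arrays. Over the ages it was higher by 0.41 (SE 0.076, 1.33-fold, adjusted p = 0.00165) in cerebral cortex and 0.38 (SE 0.079, 1.30-fold, adjusted p = 0.0101) in hippocampus, and the 0.26 of cerebellum did not pass (adjusted p = 0.281). *Olig2* differed by 0.27, 0.35 and 0.53 in cerebral cortex, cerebellum and hippocampus and did not pass the test (adjusted p = 0.904, 0.766 and 0.177). *Il33* was higher in the Ts1Cje cerebellum by 1.09 over the 4 ages (SE 0.18, 2.13-fold, adjusted p = 2.87e-04), with differences of 0.50 in cerebral cortex (adjusted p = 0.606) and 0.74 in hippocampus (adjusted p = 0.0979) that did not pass the test. At P1 in the cerebellum *Il33* was 3.95, 5.64 and 3.57 (dim) in disomic mice and 4.97, 5.76 and 6.92 in Ts1Cje mice. The 6.92 was on replicate 3, which stood apart in *Xist* and *Eif2s3y*. At P30 it was 4.95, 6.46 and 6.07 in disomic and 6.60, 6.62 and 7.08 in Ts1Cje mice, without overlap (4.47% of all genes), and the genotypes also did not overlap at P15, with 2 disomic arrays (9.8% of all genes). All Ts1Cje mice were above all disomic mice at 3 of the 4 ages in hippocampus and at 1 in cerebral cortex. Each average over the 4 ages includes 1 dim disomic array, and the pathway genes were not refitted under the alternatives.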

How the data were processed

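Total RNA of 3 brain regions of Ts1Cje and disomic mice was hybridised to 72 Affymetrix arrays, 1 for each region of each mouse, 3 mice per group. The deposited log2 values came from gcRMA (named as GCRMA in the submitters' processing notes, version not given in the sources), in which background is corrected by probe sequence, arrays are normalized together and the probes of a set are summarised. No further normalization was applied. Without the scanner files these steps could not be varied, and differences from groups close to the floor may be too small. Arrays give no count of molecules, and their number limits the precision. Groups came from the labels. The labels do not say that mice of a group came from separate litters.

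Of 45101 probe sets, 34958 carried 1 gene symbol, 932 several and 9211 none, and those with several were not used for names. The 30 genes have 61 probe sets, and 1 per gene was used, that of highest mean. Of the pathway list, 4 genes are not analysed here. The genes, the pathway and marker lists and the tests were chosen with earlier results of these data known.

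Group means were fitted in R 4.3.3 by lmFit and eBayes of limma 3.58.1 (24 groups, 70 arrays, 46 residual and 49.7 total degrees of freedom). Contrasts were taken between ages, regions and genotypes, between regions in the change from P15 to P84, and between regions and ages in the genotype effect (the latter by a moderated F test). The thresholds are those of the methods. Shares of all genes were counted over 18194 genes with 1 probe set each. The fit was tested on simulated data. The genes named are all 30, the called genes and those of greatest change of the pathway list, *Olig1* and *Olig2*, and the 10 genes most alike to the sheath mean. Sequences and motif counts came from RefSeq promoter windows. Whether equal replicate numbers pair mice was checked by the correlation of deviations from group means. It was over 0.1 in 22 of 34 pairs of genotypes (-0.185 to 0.758, median 0.193). Among pairs of regions it was over 0.1 in 54 of 69 (-0.281 to 0.694, median 0.284). Arrays of equal number thus tended to deviate alike. The main fit did not take the numbers as pairs, and the replicate number or the mouse as a block was an alternative.

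Alternatives were all 72 arrays as labelled, leaving out the 3 dim arrays or the 3 P1 arrays on which *Xist* exceeded *Eif2s3y*, array weights, the replicate number or the mouse as a block, quantile normalization, a trended and robust prior, adjusted p alone, a filter at a mean of 5, the probe set of largest interquartile range, 1 fit per region, and each replicate left out in turn. Each replicate was left out by its number and genotype, at all ages and regions together. Leaving out the dim and the P1 arrays together was added after seeing the data.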

Additional observations from a re-analysis of the deposited data

Results flagged for a closer look

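The change from P15 to P84 differed between the cerebellum and the other regions by a limma contrast of the changes. Against the cerebral cortex it was lower in the cerebellum for *Mal* (-2.42, log2), *Opalin* (-2.12), *Mog* (-1.64), *Tspan2* (-1.56), *Aspa* (-1.55), *Ermn* (-1.47), *Fa2h* (-1.35) and *Gal3st1* (-1.05), and higher for *Klk6* (1.70). Against the hippocampus it was lower for *Mal* (-2.70), *Opalin* (-2.18), *Mog* (-1.96), *Aspa* (-1.93), *Ermn* (-1.87) and *Fa2h* (-1.30), and higher for *Klk6* (1.94). The P15 groups of cerebellum and hippocampus hold 5 arrays each after the displaced arrays were left out, and the cause of these differences was not tested.

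In 3 genes every Ts1Cje mouse lay to one side of every disomic mouse in 1 group and to the other side in another group. *Fa2h* was higher in Ts1Cje mice by 0.29 in the P84 cerebral cortex and lower at -0.22 in the P84 hippocampus. *Gal3st1* was higher by 0.58 in the P1 cerebellum and lower at -0.29 in the P1 cerebral cortex. *Cryab* was higher by 0.56 in the P15 hippocampus and lower at -0.45 in the P84 hippocampus. The comparisons of P1 cerebellum, P84 cerebral cortex and P84 hippocampus each hold 1 dim disomic array, whose part was not tested. These differences between groups were not tested, none of the 6 genotype differences passed the test, and in the same direction 2.22% to 6.62% of all genes did not overlap in those of the groups with 3 mice each and 11.8% in the P15 hippocampus with 3 and 2.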

How the results depend on the processing

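The alternatives were applied to the 30 genes and not to the pathway genes. No called difference of the 30 genes changed direction under any of them. Of the calls between ages 108 of 144 passed under every alternative named in the methods, between regions 50 of 86, for the change from P15 to P84 9 of 16, and between genotypes none of the 4 and not the 1 of the region averages. Calls of genotype in the 12 comparisons were 4, and 1 with all 72 arrays as labelled, 2 without the dim arrays, 2 without the P1 arrays on which *Xist* exceeded *Eif2s3y*, 2 without both, 8 with array weights, 2 after filtering at a mean of 5, 0 with regions fitted apart and 1 to 4 when a replicate was left out. The 0 had no gene past an adjusted p of 0.05. In the region averages 1 call became 2 with array weights, 0 with the filter (which removed *Klk6*) and 0 with 1 fit per region. With array weights 1 difference of effect between regions (*Klk6*, -0.66, adjusted p = 0.029 in limma) and 7 changes of effect with age passed, against 0 and 0, and leaving out a replicate gave 0 to 2 of the latter. Between ages, the 7 calls from P30 to P84 in the cerebral cortex became 4 with all 72 arrays, 4 with the replicate block and 4 to 7 when a replicate was left out. The 14 of the hippocampus became 9 with the replicate block, 8 with 1 fit per region and 6 to 11 when a replicate was left out. The 10 from P15 to P30 in the cerebellum became 6 with the replicate block. The 4 between hippocampus and cerebral cortex became 7 with array weights, 8 with the replicate block, 13 by adjusted p alone, 7 without the dim and the P1 arrays together and 1 to 7 when a replicate was left out. The 9 differences of change between cerebellum and cerebral cortex became 5 with all 72 arrays. Taking the probe set of largest interquartile range moved the mean level of the 30 genes from 4.36 to 3.96 at P1, 7.82 to 7.15 at P15, 8.24 to 7.55 at P30 and 7.74 to 6.998 at P84. The causes were not tested. The replicate block changed no other count by over 1.5 times. With 3 mice per group, differences from groups below the array median have no settled size.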

Other observations

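The 10 genes outside the set whose 24 group means were most alike to the mean of the 12 sheath genes, among 7734 genes with a mean of at least 5, were *Eno2* (Pearson r = 0.994), *Lgi3* (0.993), *Map6d1* (0.984), *Josd2* (0.983), *Desi1* (0.983), *Dnm1* (0.982), *Napa* (0.982), *Unc80* (0.982), *Phyhip* (0.981) and *Scn2b* (0.981). None is in the pathway list, and *Eno2*, *Dnm1*, *Unc80* and *Scn2b* are known as genes of neurons. The points are groups that share arrays of the same ages, and the correlation is a description. *Eno2* averaged 7.82 at P1, 11.11 at P15, 11.83 at P30 and 11.60 at P84 in the cerebral cortex.

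A *Mobp* probe set, of rank 4 among 5 in mean level, was higher in the Ts1Cje cerebellum at P84 by 1.52 (limma adjusted p = 0.0326). Its means were 7.77 and 6.25. The probe set of highest mean differed by 0.14 (adjusted p = 1.00). No other probe set of *Mobp* passed the test there, and the cause of the disagreement was not tested.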
